A study of Mus musculus with 13 samples.

Results

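Bone marrow of mice that had received hematopoietic cells edited with the guide set labelled BRSST was compared, gene by gene, with marrow of mice that had received cells carrying the control guide sgLuc alone. The members are all 19505 genes that had a symbol in the array's gene table, each represented by its probe set of highest mean signal, out of 22203 probe sets in all. Of the 13 arrays in the series, 9 enter this comparison: 5 of marrow labelled BRSST+sgLuc and 4 of marrow labelled sgLuc. The other 4 arrays, labelled BRSST+sgEzh2, helped to estimate the spread between arrays and are cited where a gene behaved differently there. In every group the donor cells were lineage-negative, Sca-1-positive, Kit-positive (LSK) stem and progenitor cells of Cas9 knock-in mice, transduced with the guides and given 24 h later to C57Bl/6J recipients irradiated with 7 Gy. Whole marrow was collected when a mouse showed signs of leukemia or at 6 months, and the labels do not tell which of these applied to a given sample. Because whole marrow was collected, surviving recipient cells and donor cells without edits can be present in each sample. The labels do not spell out the genes cut by the BRSST guides, so the editing itself was not checked here, and nothing in the labels states that the arrays of a group are separate mice, and p-values therefore cover the spread among these arrays, which may be technical. The sgLuc samples carry later sample numbers than both BRSST groups, and a difference in handling between those numbers and the guide cannot be told apart.

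Bone marrow makes all blood lineages from a shared pool of stem and progenitor cells. Granulocyte precursors fill their granules in order, first with primary granule proteases such as myeloperoxidase and elastase, then with secondary and tertiary granule proteins such as lactoferrin and gelatinase, while B cells are built in stages marked by the surrogate light chain, recombination enzymes and the transcription factor Pax5. Basophils, plasmacytoid dendritic cells and natural killer cells are rarer residents, each with a small set of genes that few other marrow cells use. In myeloid leukemia, expanding immature or aberrant myeloid cells commonly displace these lineages. An array of whole marrow measures the summed RNA, so a lower signal from fewer cells of a type and one from less RNA per cell cannot be told apart.

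The comparison called 2325 of 19505 genes (11.9%) at an adjusted p of 0.05 in limma's moderated test with Benjamini-Hochberg adjustment over all genes. Of these, 1059 (5.43% of all genes) were higher and 1266 (6.49%) were lower in BRSST+sgLuc marrow. The largest differences lay on the lower side: 420 genes fell and 124 rose by at least 2-fold, 84 fell and 19 rose by at least 4-fold, and 16 fell and 2 rose by at least 8-fold. All values are the deposited log2 signals, a difference is on the log2 scale with its standard error, and folds are the same difference in linear terms. Over all genes the median difference was 0.04 and the median absolute difference 0.15. For 2402 genes (12.3%) the 5 BRSST+sgLuc values and the 4 sgLuc values did not overlap, and 1790 of the called genes were among them.

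**Figure D1:**
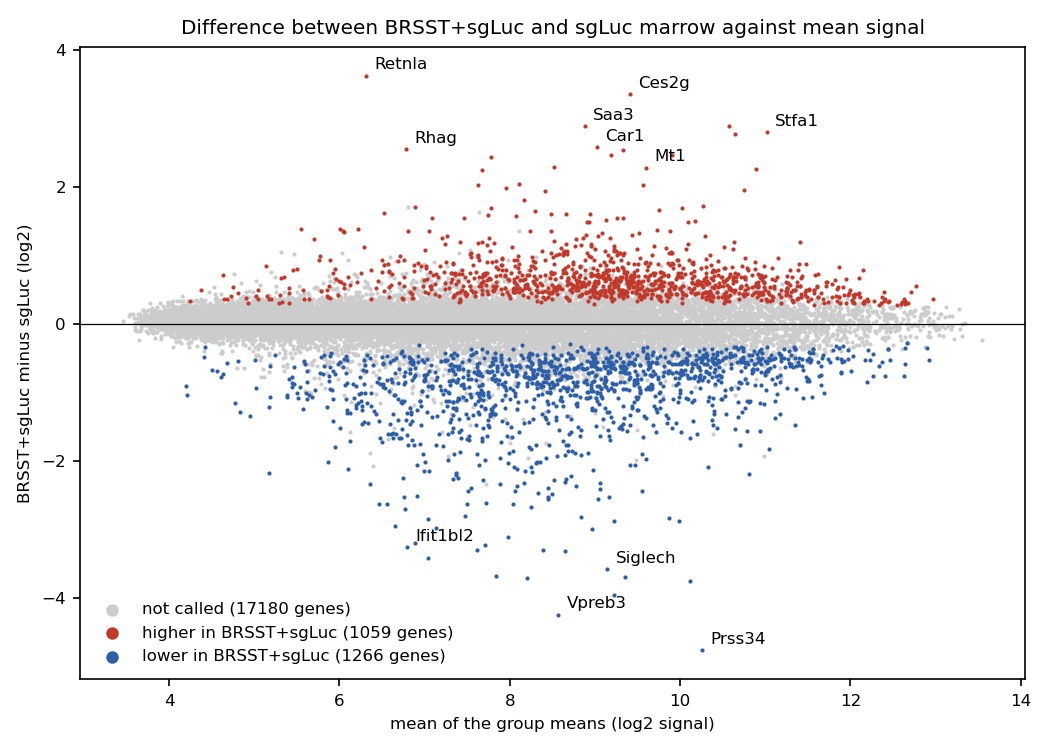
Difference between BRSST+sgLuc and sgLuc marrow (log2, vertical axis) against the mean of both groups' mean signals (log2, horizontal axis), 1 point per gene for 19505 genes. The 1059 genes called higher are red, the 1266 called lower blue and the other genes grey, and the blue points reach farther from 0 than the red ones.

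The deposited signals ran from 3.23 to 13.75, array medians from 7.19 to 7.32, and array lower quartiles from 5.66 to 5.85. The files hold no detection call, so for signals under an array's lower quartile it is unknown whether the transcript was present. Signals of 8137 genes were below the array's median on all 9 arrays, called low throughout, and 172 of these genes were called. The BRSST+sgLuc arrays were more varied than the controls: pairwise correlations over all genes ran from 0.961 to 0.992 among them and from 0.985 to 0.995 among sgLuc arrays, and the median gene's SD was 0.211 against 0.162. BRSST+sgLuc replicate 2 stood apart in the lymphoid and antigen presentation genes below. Leaving out sgLuc replicate 1 lowered the counts to 615 higher and 781 lower genes, leaving out sgLuc replicate 2 gave 682 and 832, and leaving out BRSST+sgLuc replicate 1 gave 683 and 879. Unless an array is named beside it, each call of a single gene given below held in all 9 fits that left out 1 array. Genes of the myeloid lineage stood at the top of the scale in both groups: Mpo, Elane, Camp and Ngp, all neutrophil granule proteins, read between 12.87 and 13.74 on all 9 arrays.

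Prss34, a serine protease of basophils (mouse mast cell protease 11), showed the largest fall of any gene. Prss34 read 7.86, 7.91, 7.48, 7.47 and 8.67 on BRSST+sgLuc arrays 1 to 5 and 12.76, 12.73, 12.4 and 12.65 on the 4 sgLuc arrays. The groups lay more than 3 log2 units apart at their nearest points, and the difference was -4.76 ± 0.21 (27-fold lower, adjusted p = 1.71e-08, n = 5 and 4). Vpreb3, a gene of early B cells, read 5.75, 7.04, 6.64, 6.5 and 6.33 against 10.83, 10.81, 9.54 and 11.6. It fell by 4.24 ± 0.61 on the log2 scale (18.9-fold, adjusted p = 0.000536), with replicate 3 the lowest of the controls but still well above every BRSST+sgLuc array. Ces2g, a carboxylesterase, showed the largest rise among genes whose groups did not overlap. Its signal was 11.35, 11.29, 11.4, 11.36 and 10.05 in BRSST+sgLuc and 7.94, 7.77, 7.71 and 7.53 in sgLuc marrow, a difference of 3.35 ± 0.32 (10.2-fold higher, adjusted p = 1.8e-05). Replicate 5 was the lowest of the 5 and still lay above all controls. Stfa1, a stefin that inhibits cysteine proteases inside cells, read 12.5, 12.5, 12.66, 12.42 and 12.02 against 9.45, 9.26, 9.46 and 10.29. That rise of 2.8 ± 0.19 (6.97-fold, adjusted p = 1.56e-06) was even across the BRSST+sgLuc arrays. Car1, carbonic anhydrase 1 of red cell precursors, read 9.99, 8.95, 11.78, 10.44 and 10.4 against 7.98, 7.56, 6.71 and 8.69. Both groups were spread widely, but they did not overlap, and Car1 rose by 2.58 ± 0.51 (5.96-fold, adjusted p = 0.0046).

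**Figure D2:**
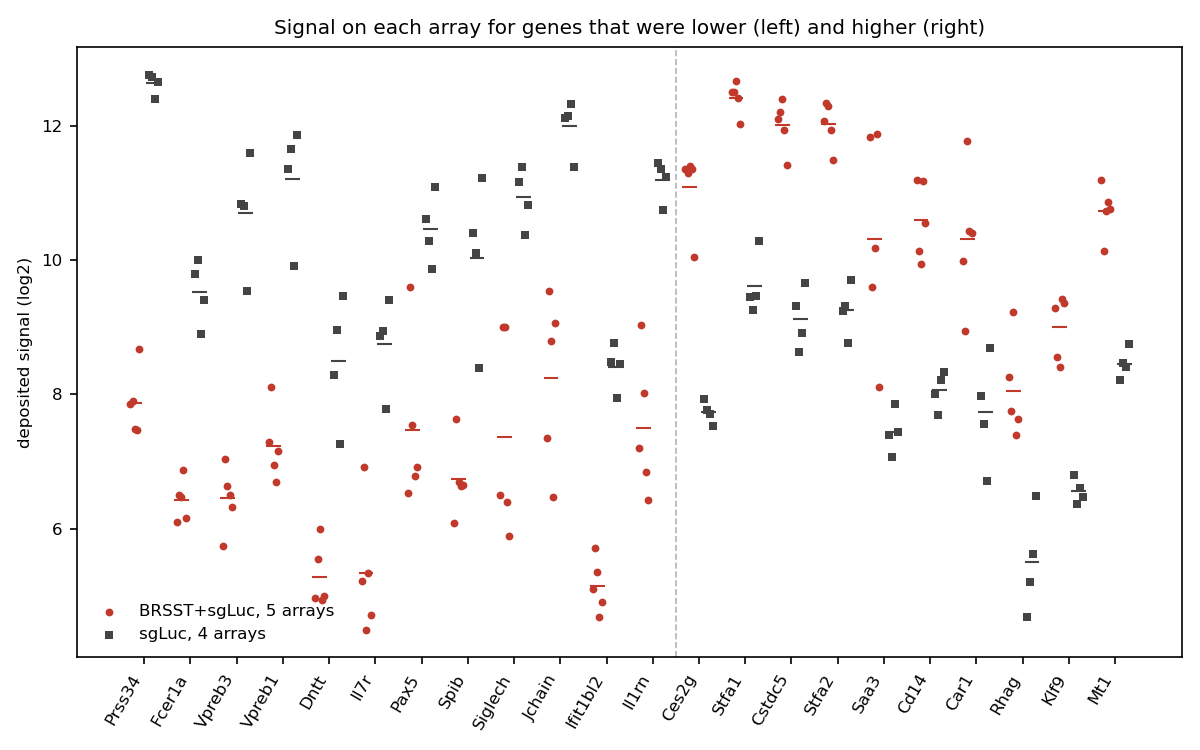
Deposited log2 signal of 22 genes on each array (circles, 5 BRSST+sgLuc arrays; squares, 4 sgLuc arrays; short lines, group means). The genes on the left were lower and those on the right higher in BRSST+sgLuc marrow, and within BRSST+sgLuc the spread is small for Prss34 and Stfa1 and wide for Siglech, Jchain and Saa3.

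Among other genes with large differences and no overlap, Atp1b1, the beta chain of the sodium pump, read 5.61, 6.97, 6.63, 5.72 and 6.82 against 10.11, 10.18, 9.29 and 10.62, a difference of -3.7 ± 0.44 (13-fold, adjusted p = 0.000141). Hebp1, a heme-binding protein, read 10.04, 9.69, 10.06, 9.9 and 8.66 against 7.41, 7.25, 7.51 and 7.35 (2.29 ± 0.25, 4.88-fold higher, adjusted p = 6.24e-05). Gng11, a G protein gamma subunit, read 9.46, 8.5, 8.69, 9.23 and 8.14 against 6.19, 6.84, 6.6 and 6.62 (2.24 ± 0.24, 4.73-fold higher, adjusted p = 6.24e-05). In both of the latter replicate 5 was again the lowest BRSST+sgLuc array.

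Early B cell genes fell as a group. Of 15 genes on the pre-B and pro-B list, 13 were called lower and none higher, against 6.49% of all genes called lower, and the median difference was -2.22 against 0.04 over all genes. The lower count ran from 9 to 14 when single arrays were left out, with 9 reached without sgLuc replicate 4. Vpreb1, a component of the surrogate light chain, read 7.29, 8.11, 6.95, 6.69 and 7.16 against 11.36, 11.66, 9.92 and 11.87, a difference of -3.96 ± 0.72 (adjusted p = 0.00259). Dntt, the terminal transferase that adds bases at V(D)J joints, read 4.97, 5.55, 5.99, 4.94 and 5 against 8.29, 8.96, 7.26 and 9.47. On 4 of the 5 BRSST+sgLuc arrays Dntt lay under the lower quartile, so its difference of -3.2 ± 0.36 (adjusted p = 7.71e-05) led to signals that cannot be ordered further. Il7r, the receptor for the growth factor of early B and T cells, read 5.22, 6.92, 4.5, 5.34 and 4.71 against 8.87, 8.94, 7.78 and 9.41 (-3.41 ± 0.52, adjusted p = 0.000846). Pax5, which commits cells to the B lineage, read 6.53, 9.6, 7.55, 6.78 and 6.92 against 10.61, 10.29, 9.87 and 11.09. Replicate 2 came close to the controls, and the Pax5 difference of -2.99 ± 0.74 (adjusted p = 0.0156) reached an adjusted p of 0.0503 without sgLuc replicate 4.

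Genes of mature B cells moved the same way, with 12 of 15 called lower, none higher and a median of -1.92. Without single arrays between 8 and 13 of the 15 were called, the fewest without BRSST+sgLuc replicate 1. Spib, a transcription factor of B cells and plasmacytoid dendritic cells, read 6.09, 7.64, 6.69, 6.63 and 6.65 against 10.4, 10.11, 8.4 and 11.22, a difference of -3.29 ± 0.66 (adjusted p = 0.0047). Ly6d, an early marker of the B lineage, read 7.8, 10.83, 8.25, 7.61 and 7.81 against 11.46, 11.11, 10.89 and 11.69 (-2.83 ± 0.67, adjusted p = 0.0131). Cd22, an inhibitory co-receptor of the B cell receptor, fell by 2.39 ± 0.47 (adjusted p = 0.00422). BRSST+sgLuc replicate 2 held 8.37 as its mean over the list, while the next of the 5 had 7.22 and the controls ran from 8.58 to 9.58. Fcrla, a B cell Fc receptor-like protein, shows the same array: it read 10.09 there, inside the control range of 9.03 to 11.13, and 5.81 to 6.91 on the other BRSST+sgLuc arrays. Its call (-3.31 ± 0.9, adjusted p = 0.0257) was lost, at up to 0.0814, without BRSST+sgLuc replicate 1 or 4 or sgLuc replicate 1, 2 or 4.

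Plasma cell genes split. Of 12 genes 5 were called lower and none higher, with a median of -0.52. Jchain, which links secreted antibody into polymers, read 7.35, 9.54, 8.8, 6.48 and 9.07 against 12.11, 12.14, 12.33 and 11.39 (-3.75 ± 0.62, 13.4-fold lower, adjusted p = 0.00138). Slamf7, a surface receptor of plasma cells, NK cells and plasmacytoid dendritic cells, read 5.16, 7.63, 6.18, 5.46 and 5.55 against 9.74, 9.75, 9.04 and 10.18 (-3.68 ± 0.59, adjusted p = 0.00123). Irf4, a transcription factor needed for plasma cells and active earlier in B cells, fell by 2.06 ± 0.32 (adjusted p = 0.000934). Xbp1, which drives the secretory programme, had a difference of -0.19 ± 0.11 (adjusted p = 0.309), and Tnfrsf17, the plasma cell survival receptor BCMA, of -0.13 ± 0.12 (adjusted p = 0.596). Mzb1, a chaperone of antibody assembly, differed by -2.18 ± 0.85 without passing the test (adjusted p = 0.117), since BRSST+sgLuc replicate 2 read 9.66, above all controls, and the other 4 read 5.22 to 5.69.

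Of 16 T cell genes 6 were called lower, none higher, with a median of -0.82 and all 16 differences below 0. The count was 10 without BRSST+sgLuc replicate 2 and 2 without sgLuc replicate 1. Zap70, the kinase below the T cell receptor and also present in NK cells, read 6.9, 7.48, 6.64, 6.86 and 6.46 against 8.39, 8.25, 8.08 and 8.64, a difference of -1.47 ± 0.23 (adjusted p = 0.00108) with no overlap. Cd3g, a chain of the T cell receptor complex, differed by -2.53 ± 0.62 (adjusted p = 0.0155) and Cd8b1, a co-receptor chain of cytotoxic T cells, by -1.87 ± 0.46 (adjusted p = 0.0156), but without sgLuc replicate 1 these reached 0.0583 and 0.0597.

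NK cell and cytotoxic genes gave a similar picture: 7 of 16 were called lower, none higher, and the median was -1.18. Without BRSST+sgLuc replicate 2 the count was 12, without BRSST+sgLuc replicate 1 or 4 it was 4, without sgLuc replicate 1 it was 3 and without sgLuc replicate 4 it was 2. Klrb1c, the NK1.1 antigen, read 4.79, 7.86, 6.01, 4.91 and 4.66 against 8.85, 8.62, 8.1 and 8.94 (-2.98 ± 0.71, adjusted p = 0.0128). Il2rb, the receptor chain through which NK cells sense IL-15, read 6.63, 8.3, 7, 6.21 and 6.45 against 9.82, 9.23, 9.37 and 9.93 (-2.67 ± 0.62, adjusted p = 0.0111). In both genes replicate 2 was the highest of the BRSST+sgLuc arrays and lay below every control. For Ncr1, an activating receptor of NK cells, the same array read 9.1, inside the control range of 8.53 to 9.35, and the other 4 read 5.15 to 5.52. That gene's call (-2.8 ± 0.74, adjusted p = 0.0226) was lost without BRSST+sgLuc replicate 1 or 4 or sgLuc replicate 1 or 4, at up to 0.066.

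Of 12 basophil and mast cell genes 7 were called lower and none higher, with a median of -0.91. The mean over the list was lower on every BRSST+sgLuc array, replicate 2 included, at 7.28 to 7.53 against 8.5 to 8.85 on sgLuc arrays. After Prss34, the basophil protease Mcpt8 read 9.57, 9.91, 9.55, 9.67 and 9.83 against 12.04, 12.04, 11.81 and 11.7, a difference of -2.19 ± 0.18 (4.56-fold, adjusted p = 5.17e-06). Fcer1a, the chain of the high-affinity IgE receptor that binds IgE, read 6.1, 6.51, 6.48, 6.88 and 6.16 against 9.79, 10, 8.9 and 9.41, a difference of -3.1 ± 0.21 (8.56-fold, adjusted p = 1.6e-06). Ms4a2, the beta chain of the same receptor, fell by 1.31 ± 0.15 (adjusted p = 8.92e-05) and Cd200r3, an activating receptor of basophils and mast cells, by 1.25 ± 0.17 (adjusted p = 0.000412), the latter to signals under the lower quartile on all 5 arrays. Gata2, a transcription factor of both stem cells and basophils, read 7.63, 7.34, 7.89, 7.32 and 7.61 against 8.64, 8.76, 8.21 and 8.61 (-1 ± 0.25, adjusted p = 0.0184), a call lost at 0.0625 or less without sgLuc replicate 1 or 2. Other genes of this list did not pass the test: Cpa3, the mast cell carboxypeptidase, differed by -0.83 ± 0.34 (adjusted p = 0.14), and Tpsab1, a mast cell tryptase, lay under the lower quartile on all 9 arrays with a difference of 0.12 ± 0.14 (adjusted p = 0.673).

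To show what lies before the start sites of the basophil genes with the largest falls, 130 bases ending at the RefSeq start are printed 5′ to 3′ on the gene's own strand, with AGATAA, the core bound by GATA factors, or its reverse complement in capitals. Prss34 lies on the plus strand at chr17:25298264-25298393 of GRCm38.p6 and Fcer1a on the minus strand at chr1:173227230-173227359.
Prss34: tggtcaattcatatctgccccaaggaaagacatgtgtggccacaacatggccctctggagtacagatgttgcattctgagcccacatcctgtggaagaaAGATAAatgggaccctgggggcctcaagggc
Fcer1a: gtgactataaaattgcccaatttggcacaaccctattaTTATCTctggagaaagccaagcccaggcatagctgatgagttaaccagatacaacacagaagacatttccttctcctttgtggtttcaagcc
Within 250 bases before the start, on either strand, AGATAA was found in 5 of the 11 basophil and mast cell genes with a RefSeq promoter (45.5%), in 9.01% of all 15691 promoters of genes on the array, and in 7.27% of those called lower. AGATAA was also in 4 of 8 promoters of the red cell membrane genes (50%), whose differences were all above 0. Other motifs were searched too, over all the lists, and only some of those shares are given in the text. Such a match describes letters in a window and not a bound site.

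Eosinophil genes were lower in part. Of 8 genes 4 were called lower and none higher, with a median of -0.74. Prg2, the eosinophil major basic protein, read 10.23, 10.49, 9.19, 9.97 and 10.56 against 11.35, 11.46, 11.2 and 11.46 (-1.28 ± 0.23, adjusted p = 0.00258). Epx, eosinophil peroxidase, fell by 0.86 ± 0.15 (adjusted p = 0.00229) and Alox15, an eosinophil and macrophage lipoxygenase, by 0.81 ± 0.14 (adjusted p = 0.00156), while Siglecf, the usual surface marker of mouse eosinophils, differed by -0.26 ± 0.2 (adjusted p = 0.5).

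Plasmacytoid dendritic cell genes were called lower in 9 of 11 cases and higher in none, with a median of -1.52. Siglech, a surface lectin of these cells, read 6.5, 9.01, 9.01, 6.4 and 5.89 against 11.16, 11.38, 10.37 and 10.82, a difference of -3.57 ± 0.56 (11.9-fold, adjusted p = 0.001). Replicates 2 and 3 kept more Siglech signal than the other 3 BRSST+sgLuc arrays. Ccr9, a chemokine receptor of the same cells, read 5.07, 5.98, 5.8, 5.31 and 4.94 against 8.43, 8.5, 7.63 and 7.91 (-2.7 ± 0.22, 6.49-fold lower, adjusted p = 5.17e-06). Irf8, the transcription factor needed for dendritic cells and monocytes, read 8.15, 8.85, 9.18, 7.92 and 8.41 against 9.72, 9.77, 9.62 and 9.82 (-1.23 ± 0.21, adjusted p = 0.00159). Bst2 fell by 1.52 ± 0.31 (adjusted p = 0.00573) and Tlr9, the receptor for unmethylated DNA, by 1.79 ± 0.41 (adjusted p = 0.0101), but Tlr7, the receptor for single-stranded RNA, which monocytes and neutrophils can also make, differed by 0.25 ± 0.12 (adjusted p = 0.194).

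Conventional dendritic cell genes were called lower in 6 of 12 cases and higher in none, with a median of -0.39, and in 3 without sgLuc replicate 1. Itgax, the integrin CD11c, read 5.89, 6.31, 6.24, 5.63 and 5.96 against 7.79, 7.75, 7.33 and 7.92 (-1.69 ± 0.18, adjusted p = 5.61e-05), and Cd209a, a lectin of monocyte-derived dendritic cells, fell by 1.91 ± 0.39 (adjusted p = 0.00587). Zbtb46 and Flt3, a transcription factor and a growth factor receptor of dendritic cells and their precursors, had differences of 0.02 ± 0.13 (adjusted p = 0.956) and 0.14 ± 0.31 (adjusted p = 0.85).

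Calls among MHC class II genes, which present antigen to helper T cells, depended on replicate 2. Of 11 class II genes 5 were called lower and none higher, with a median of -1.36, but only 1 of the 11 kept the groups apart. Without BRSST+sgLuc replicate 2 the count was 10, without BRSST+sgLuc replicate 3 it was 3, and it was 2 without any other array. H2-Ab1, a class II beta chain, read 8.93, 11.66, 10.41, 8.91 and 9.16 against 11.78, 11.58, 11.55 and 11.43, so that replicate 2 matched the controls while replicates 1, 4 and 5 lay more than 2 log2 units below them (-1.77 ± 0.6, adjusted p = 0.07). H2-DMb2, a chain of the peptide loader, fell by 1.36 ± 0.31 (adjusted p = 0.0108), and Ciita, the master regulator of class II genes, by 0.88 ± 0.21 (adjusted p = 0.0124). Of 10 class I genes 0 were called in limma's test, 2 had an unadjusted p under 0.05, and 1 was called with limma's array quality weights or without BRSST+sgLuc replicate 5, while the median difference was -0.07.

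Of 15 monocyte genes 8 were called lower, Cd14 was called higher, 6 did not pass the test, and the median was -0.58. Cx3cr1, the chemokine receptor of patrolling monocytes, read 5.76, 6.82, 6.96, 6.42 and 5.47 against 8.51, 8.68, 8.82 and 8.88 (-2.44 ± 0.28, 5.41-fold lower, adjusted p = 8.92e-05). Ccr2, that of inflammatory monocytes, read 8.83, 9.88, 10.13, 8.88 and 8.44 against 10.81, 10.69, 10.77 and 10.94 (-1.57 ± 0.32, adjusted p = 0.00574). Ace and Treml4, markers of the patrolling subset, fell by 2.84 ± 0.47 (adjusted p = 0.00147) and 1.49 ± 0.25 (adjusted p = 0.00157). Of 16 macrophage genes 3 were called lower (18.8%, against 6.49% of all genes) and none higher, with a median of -0.34. The lower count was 5 without BRSST+sgLuc replicate 2 or 3. Axl, a receptor for dying cells, fell by 2.03 ± 0.49 (adjusted p = 0.0137) and Slc40a1, the iron exporter of red pulp and marrow macrophages, by 1.08 ± 0.23 (adjusted p = 0.00633).

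Interferon-stimulated genes were lower as a group: 17 of 26 were called lower and none higher, 16 of the 26 kept the groups apart (against 6.32% of all genes lower and apart), all 26 differences were below 0 and the median was -0.87. Leaving out single arrays gave between 12 and 21 calls, the fewest without sgLuc replicate 4 and the most without BRSST+sgLuc replicate 2. Ifit1bl2, a member of the interferon-induced tetratricopeptide family, read 5.1, 5.71, 5.36, 4.69 and 4.91 against 8.48, 8.77, 7.95 and 8.46, a difference of -3.26 ± 0.2 (9.58-fold, adjusted p = 6.17e-07). All 5 BRSST+sgLuc values lay under the lower quartile and no control did. Oas2 and Oas3, enzymes that make the activator of RNase L, fell by 1.95 ± 0.29 (adjusted p = 0.000758) and 1.31 ± 0.18 (adjusted p = 0.000334). Usp18, which dampens interferon receptor signalling, read 7.04, 8.19, 7.08, 7.23 and 6.45 against 8.99, 8.92, 8.57 and 8.9 (-1.65 ± 0.26, adjusted p = 0.00108). Plasmacytoid dendritic cells, whose genes fell on the same arrays, are a main source of type I interferon, and the part of either group of genes in the other was not tested.

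Letters before the start sites are shown for 5 genes that fell and belong to the interferon group, as the interferon-stimulated response element is the sequence through which such genes are best known to respond. Ifit1bl2 (chr19:34640744-34640873, minus strand), Oas3 (chr5:120777660-120777789, minus), Ifi213 (chr1:173599273-173599402, minus), Ifi208 (chr1:173673535-173673664, plus) and Mndal (chr1:173880188-173880317, minus) are given on their own strand from RefSeq GRCm38.p6, 130 bases each, with matches to GAAANNGAAA in capitals.
Ifit1bl2: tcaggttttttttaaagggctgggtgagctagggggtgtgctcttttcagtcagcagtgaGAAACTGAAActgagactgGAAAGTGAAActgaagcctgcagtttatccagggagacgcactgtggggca
Oas3: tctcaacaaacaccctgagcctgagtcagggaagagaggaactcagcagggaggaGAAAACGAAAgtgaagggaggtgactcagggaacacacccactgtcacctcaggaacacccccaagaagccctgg
Ifi213: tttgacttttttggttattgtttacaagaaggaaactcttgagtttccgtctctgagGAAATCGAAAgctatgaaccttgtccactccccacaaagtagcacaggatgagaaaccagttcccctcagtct
Ifi208: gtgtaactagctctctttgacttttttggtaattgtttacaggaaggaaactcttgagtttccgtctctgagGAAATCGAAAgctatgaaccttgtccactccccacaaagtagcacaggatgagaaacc
Mndal: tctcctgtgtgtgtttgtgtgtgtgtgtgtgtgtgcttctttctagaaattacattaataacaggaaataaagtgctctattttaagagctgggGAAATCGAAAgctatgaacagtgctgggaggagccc
Ifi213, Ifi208 and Mndal, of the Ifi200 family, share GAAATCGAAA, and Ifit1bl2 holds 2 matches with other middle letters. The Ifi213 and Ifi208 stretches are near copies of each other well beyond the motif, so they are not independent. Every stretch shown holds a match. Over 250 bases before the start and both strands the motif was in 10 of the 20 interferon-stimulated genes with a RefSeq promoter (50%), in 3.03% of all 15691 promoters, in 61 of 1045 promoters of genes called lower (5.84%) and in 21 of 858 of genes called higher (2.45%). Ifi213 fell by 1.62 ± 0.2 (adjusted p = 0.000202), Ifi208 by 0.97 ± 0.18 (adjusted p = 0.00334) and Mndal by 2.08 ± 0.5 (adjusted p = 0.0136), and these 3 were chosen after their values were seen because they sit in a row of called neighbours described at the end.

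The called neutrophil granule genes split by granule class, while several abundant members of both classes were not called. Among 8 primary granule genes 5 were called higher and none lower, with a median of 0.46. Cst7, cystatin F, which controls cathepsins in granules, rose by 0.84 ± 0.13 (adjusted p = 0.000991) and Ctsg, cathepsin G, by 0.78 ± 0.1 (adjusted p = 0.000189). Ctsg read 12.58, 12.5, 12.59, 12.56 and 12.46 against 11.65, 11.8, 11.79 and 11.79, an even shift on every array. Cst7 is also counted among the stefin and cystatin genes below. Mpo and Elane, the most familiar proteins of this class, differed by 0.14 ± 0.1 (adjusted p = 0.463) and 0.22 ± 0.1 (adjusted p = 0.178). Fcnb went the other way, at -0.31, without passing the test (adjusted p = 0.158). Prtn3, proteinase 3, differed by 0.47 ± 0.11 (adjusted p = 0.0148), or 0.0593 without sgLuc replicate 1. The count was 3 without BRSST+sgLuc replicate 1 or 4 or sgLuc replicate 4, and 2 without sgLuc replicate 1.

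Among 12 secondary and tertiary granule genes 7 were called lower and none higher, with a median of -0.51. The lower count was 5 to 7 when single arrays were left out, and 5 with array medians set equal. The calls of Cd177 and Mmp9 held in only 3 and 2 of the 9 fits that left out an array. Mmp25, a membrane-bound matrix protease, read 9.59, 9.09, 9.11, 9.34 and 8.48 against 10.58, 10.69, 10.49 and 10.5 (-1.45 ± 0.21, adjusted p = 0.000578). Ltf, lactoferrin, read 12.17, 12.4, 12.42, 12.24 and 12.48 against 12.92, 13, 12.98 and 12.8 (-0.58 ± 0.1, adjusted p = 0.00143). Mmp8, neutrophil collagenase, fell by 0.76 ± 0.17 (adjusted p = 0.00887), Itgam, the integrin CD11b, by 0.7 ± 0.12 (adjusted p = 0.00195) and Cybb, the NADPH oxidase core, by 0.53 ± 0.1 (adjusted p = 0.0026). Camp, Ngp and Lcn2, all abundant in the same granules, differed by -0.24 ± 0.08, -0.18 ± 0.08 and -0.07 ± 0.09 (adjusted p = 0.0789, 0.184 and 0.697). Those 3 genes read between 13.16 and 13.74 on all 9 arrays, at the top of the scale, and whether the scale compressed their differences was not tested.

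Of 15 genes of mature neutrophils 2 were called higher (13.3%, against 5.43% of all genes) and 3 lower (20%, against 6.49%). The median was -0.17, and the lower count was 6 without BRSST+sgLuc replicate 2 and 1 without sgLuc replicate 1. Csf3r, the receptor for the granulocyte growth factor G-CSF, read 11.84, 11.78, 12.12, 11.84 and 11.81 against 12.68, 12.56, 12.63 and 12.69 (-0.76 ± 0.1, adjusted p = 0.000322). Il1r2, the decoy receptor for interleukin-1, rose by 1.19 ± 0.24 (adjusted p = 0.00474). Cxcl2, a chemokine that recruits neutrophils, rose by 1.6 ± 0.34 (adjusted p = 0.00758), with 10.35 and 10.37 on replicates 1 and 4 and 8.39, 8.82 and 9.36 on the others, against 7.56 to 8.39 in sgLuc marrow.

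**Figure D3:**
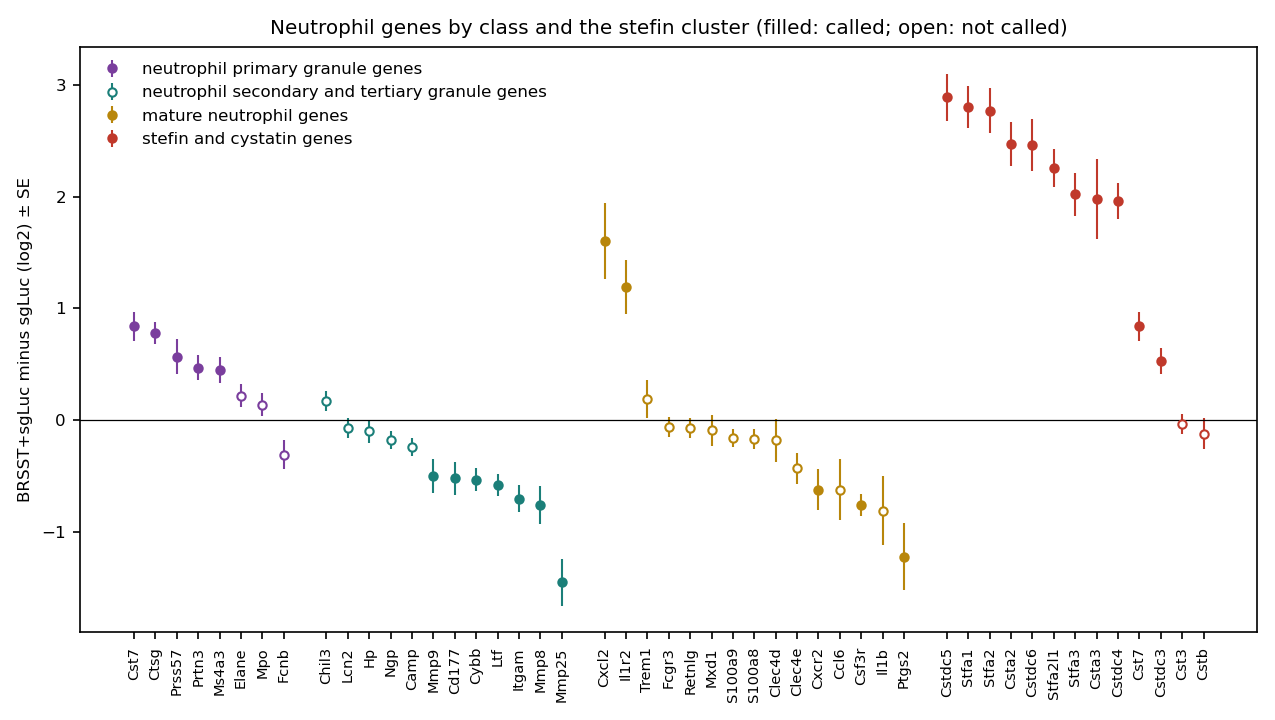
Difference between BRSST+sgLuc and sgLuc marrow (log2, bars give the standard error) for neutrophil genes grouped as primary granule, secondary and tertiary granule, mature neutrophil and stefin genes. Filled points passed the test and open points did not: called primary granule genes lie above 0, called secondary and tertiary granule genes below 0, and stefins farthest above 0.

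Of 13 stefin and cystatin genes 11 were called higher and none lower, the median was 2.02, and the count stayed at 11 in all 9 fits that left out 1 array. Cstdc5 read 12.1, 12.21, 12.4, 11.94 and 11.42 against 9.31, 8.63, 8.91 and 9.66, a rise of 2.89 ± 0.21 (7.39-fold, adjusted p = 1.6e-06). Stfa2 read 12.07, 12.34, 12.29, 11.93 and 11.49 against 9.24, 9.32, 8.77 and 9.71 (2.77 ± 0.2, 6.8-fold, adjusted p = 1.6e-06). Csta2, Cstdc6, Stfa2l1, Stfa3, Csta3 and Cstdc4 rose by 1.96 to 2.47, and Cstdc3 by 0.53 ± 0.12 (adjusted p = 0.00973). Replicate 5 was the lowest BRSST+sgLuc array in each of these genes, and the groups overlapped for Csta3 only. Stefins are cytosolic inhibitors of cathepsins and are known as abundant transcripts of mouse neutrophils. Their coding sequences are close copies of each other, so how the signal divides among these genes is uncertain.

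These 10 genes follow each other on chromosome 16. Sequences before the start of 3 members with AGATAA, 2 matches in Stfa1 and in Stfa3 and 1 in Cstdc5, and of 1 with none are shown for comparison of the copies, from RefSeq GRCm38.p6, 130 bases each on the gene's strand with AGATAA in capitals: Stfa1 (chr16:36277018-36277147, plus), Cstdc5 (chr16:36367571-36367700, minus), Stfa3 (chr16:36455393-36455522, minus) and Stfa2l1 (chr16:36156681-36156810, plus).
Stfa1: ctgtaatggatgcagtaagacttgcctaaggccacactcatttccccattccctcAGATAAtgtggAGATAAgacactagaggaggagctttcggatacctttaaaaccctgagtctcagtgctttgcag
Cstdc5: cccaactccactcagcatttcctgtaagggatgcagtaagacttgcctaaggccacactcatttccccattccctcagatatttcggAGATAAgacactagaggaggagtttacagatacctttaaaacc
Stfa3: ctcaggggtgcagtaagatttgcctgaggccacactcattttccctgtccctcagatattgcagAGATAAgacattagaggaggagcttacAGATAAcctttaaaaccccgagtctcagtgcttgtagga
Stfa2l1: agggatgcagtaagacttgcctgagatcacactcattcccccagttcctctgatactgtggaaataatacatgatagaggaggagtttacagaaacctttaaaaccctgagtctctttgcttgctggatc
Promoters were at hand for 9 of the 10 genes. Pairs of promoters were aligned with free ends, and identical bases were counted as a share of the 250-base window. The promoters of 7 genes, Stfa2l1, Cstdc4, Csta3, Stfa1, Cstdc5, Stfa2 and Stfa3, reached 64.0 to 90.8% over 21 pairs. The 15 pairs with Csta2 or Cstdc3 reached 2.4 to 56.4%. A low share can mean that little of the windows overlapped in the alignment, so it does not measure divergence. Csta2 rose by 2.47 ± 0.2 (adjusted p = 5.17e-06). Its promoter reached 56.4% with that of Stfa2 but 18.8% with that of Stfa2l1, although Stfa2l1 and Stfa2 reached 90.8%. Whether the Csta2 promoter is a shifted copy of the group was not tested. AGATAA was present in 4 of the 11 stefin and cystatin promoters (36.4%), against 9.01% of all promoters and 6.64% of those called higher. Stfa2l1, which has none in the stretch shown, rose by 2.26 ± 0.17 (4.8-fold, adjusted p = 2.15e-06).

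Innate receptors and cytokines went both ways, with 4 of 23 called higher, 4 lower and a median of 0.21. Each direction held 17.4% of the list, against 5.43% of all genes higher and 6.49% lower. Cd14, the co-receptor for bacterial lipopolysaccharide, read 11.2, 10.13, 9.94, 11.18 and 10.55 against 8.01, 7.7, 8.22 and 8.33 (2.54 ± 0.24, 5.8-fold higher, adjusted p = 1.87e-05). Saa3, an acute phase protein made by myeloid cells in the mouse, read 11.84, 9.6, 10.18, 11.88 and 8.11 against 7.4, 7.07, 7.86 and 7.44. Replicates 1 and 4 were the highest and replicate 5 lay just above the highest control, and the rise was 2.88 ± 0.63 (7.37-fold, adjusted p = 0.00804). Il1rn, the natural antagonist of the interleukin-1 receptor, fell: it read 7.21, 9.03, 8.02, 6.85 and 6.43 against 11.44, 11.36, 10.74 and 11.24 (-3.69 ± 0.4, 12.9-fold lower, adjusted p = 6.24e-05). Tlr5, the flagellin receptor, read 5.58, 6.99, 6.18, 5.18 and 5.9 against 9.39, 9.25, 9.19 and 9.26 (-3.3 ± 0.31, 9.88-fold lower, adjusted p = 1.8e-05). Tlr8 fell by 1.17 ± 0.23 (adjusted p = 0.00481). Retnla, a secreted resistin-like protein of alternatively activated macrophages and eosinophils, was picked after its values were seen as the gene with the largest rise of all. It read 10.27, 8.08, 7.25, 10.18 and 4.81 against 4.46, 4.4, 4.29 and 4.83, so replicate 5 was at the control level and under the lower quartile like all 4 controls. The Retnla difference of 3.62 ± 0.95 (adjusted p = 0.0218) was lost, at up to 0.06, without BRSST+sgLuc replicate 1 or 4 or sgLuc replicate 1, 2 or 3.

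Of 10 red cell membrane genes 2 were called higher (20%, against 5.43% of all genes) and none lower, with a median of 0.59 and all 10 differences above 0. The count was 4 with array medians set equal, 6 without BRSST+sgLuc replicate 5 and 1 without BRSST+sgLuc replicate 1 or 3 or sgLuc replicate 1 or 2. Rhag, the Rh-associated glycoprotein of the red cell membrane, read 8.26, 7.75, 9.23, 7.39 and 7.63 against 4.69, 5.21, 5.63 and 6.49 (2.55 ± 0.37, 5.85-fold higher, adjusted p = 0.000593), with 3 of the 4 controls under the lower quartile. Slc4a1, the band 3 anion exchanger of late red cells, differed by 0.12 ± 0.15 (adjusted p = 0.699). Among 11 erythroid regulators and carbonic anhydrases Car1 and Car2 were called higher (18.2%). Gata1, Tal1 and Gfi1b, transcription factors of the lineage, had differences of -0.06 ± 0.12, 0.09 ± 0.11 and -0.06 ± 0.12 (adjusted p = 0.831, 0.737 and 0.842), and Klf1, which activates globin genes, 0.4 ± 0.16 (adjusted p = 0.137). Car2 (1.2 ± 0.32, adjusted p = 0.0237) was lost at up to 0.0791 without sgLuc replicate 1 or 3. Of 13 genes of heme synthesis and iron uptake 1 was called higher and 1 lower (7.69% each, against 5.43% and 6.49% of all genes). Fech, which inserts iron into heme, rose by 0.81 ± 0.12 (adjusted p = 0.000519). Ppox differed by -0.52 ± 0.14 (adjusted p = 0.0215), a call lost without BRSST+sgLuc replicate 1 or 4 or sgLuc replicate 1 or 2, at up to 0.0793. A second heme gene was called higher without BRSST+sgLuc replicate 3 or 5. Adult globin genes were not analysed here. Of 15 megakaryocyte and platelet genes only Itgb3, the platelet fibrinogen receptor chain, was called (6.67% lower, against 6.49% of all genes). It fell by 0.66 ± 0.13 (adjusted p = 0.00477). On the higher side 2 were called without BRSST+sgLuc replicate 5 and 1 without sgLuc replicate 3.

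Of 10 genes on a list of glucocorticoid-responsive and metallothionein genes 6 were called higher and none lower, with a median of 1.05. Klf9, a transcription factor induced by glucocorticoid and thyroid hormone, read 9.29, 8.56, 8.41, 9.42 and 9.36 against 6.8, 6.37, 6.61 and 6.47 (2.44 ± 0.2, 5.44-fold higher, adjusted p = 5.17e-06). Fkbp5, a chaperone that restrains the glucocorticoid receptor, read 10.53, 10.12, 10.6, 10.6 and 11.03 against 8.84, 8.92, 9.06 and 8.85 (1.66 ± 0.15, 3.15-fold, adjusted p = 1.54e-05). Zbtb16 rose by 1.28 ± 0.15 (adjusted p = 0.000145) and Per1, also a clock gene, by 1.33 ± 0.23 (adjusted p = 0.00201). Mt1, a zinc and copper binding protein, read 11.19, 10.13, 10.73, 10.87 and 10.76 against 8.21, 8.47, 8.41 and 8.75 (2.28 ± 0.19, 4.84-fold, adjusted p = 5.17e-06). Tsc22d3, a glucocorticoid-induced leucine zipper protein, rose by 0.81 ± 0.2 (adjusted p = 0.0171), but reached up to 0.0662 without sgLuc replicate 2 or 4. Mt2, next to Mt1 on the chromosome, differed by 0.51 ± 0.21 (adjusted p = 0.135) although the groups did not overlap. In the limma fit of only the 2 groups compared, the adjusted p of Mt2 was 0.0198. Nr3c1, the glucocorticoid receptor itself, differed by -0.31 ± 0.13 (adjusted p = 0.164), and Sgk1 and Ddit4 by 0.09 ± 0.33 and 0.18 ± 0.13 (adjusted p = 0.922 and 0.448). Of 16 circadian clock genes 3 were called higher (18.8%, against 5.43% of all genes) and 1 lower (6.25%, against 6.49%). Of the 3 only Per1 held in all 9 fits. The higher count was 1 without BRSST+sgLuc replicate 1 or 4 or sgLuc replicate 1 or 2, and the lower count was 2 without BRSST+sgLuc replicate 2 or 3 and 0 without BRSST+sgLuc replicate 1, 4 or 5 or sgLuc replicate 1, 2 or 4.

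Immediate early genes, which answer many stimuli within minutes, were called higher in 4 of 15 cases (26.7%, against 5.43% of all genes). None was called lower, and the median was 0.44. The higher count was 7 without BRSST+sgLuc replicate 2, 2 without BRSST+sgLuc replicate 1 or 4 or sgLuc replicate 1, and 1 without sgLuc replicate 2 or 3. In none of the 15 genes were the groups apart. Fosb read 11.87, 11.62, 12.37, 12.01 and 11.34 against 11.15, 10.88, 10.47 and 11.34 (0.88 ± 0.21, adjusted p = 0.0141). Cdkn1a, the cell cycle inhibitor p21 and a p53 target, read 10.95, 10.46, 10.79, 11.09 and 11.39 against 9.53, 9.7, 9.55 and 9.82 (1.29 ± 0.21, adjusted p = 0.00123). Of 17 p53 targets Cdkn1a and Perp were called higher (11.8%, against 5.43% of all genes), and 4 were with array medians set equal. Perp (0.72 ± 0.18, adjusted p = 0.0186) was lost at up to 0.0608 without sgLuc replicate 2 or 4.

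Of 18 stem and progenitor genes 3 were called lower (16.7%, against 6.49% of all genes) and none higher, with a median of -0.17, and 1 without sgLuc replicate 1 or 2. Angpt1, a niche signal that progenitors make, fell by 1.4 ± 0.32 (adjusted p = 0.0115). The other calls were Gata2, given above with the basophil genes, and Cd48 (adjusted p = 0.0347). Cd48 kept its call in 2 of the 9 fits that left out an array, and reached up to 0.0877. Of 16 Hox and cofactor genes 3 were called higher (18.8%, against 5.43% of all genes) and none lower, with a median of 0.29. The count was 7 with array medians set equal, 8 with array quality weights, 5 without BRSST+sgLuc replicate 3 and 1 without BRSST+sgLuc replicate 4 or sgLuc replicate 1, 2 or 4. Hoxa5 read 7.77, 7.6, 7.56, 7.77 and 7.73 against 7.06, 6.87, 6.87 and 6.96, a small and even rise of 0.75 ± 0.1 (adjusted p = 0.000377). Hoxb7 (0.64 ± 0.17, adjusted p = 0.0228) and Hoxa6 (0.55 ± 0.15, adjusted p = 0.0256) were also called, Hoxb7 not without BRSST+sgLuc replicate 4 or any sgLuc array (up to 0.0607) and Hoxa6 not without BRSST+sgLuc replicate 1 or 4 or sgLuc replicate 1, 2 or 4 (up to 0.0906). Of 15 myeloid transcription factors 5 were called higher (33.3%, against 5.43% of all genes) and 2 lower (13.3%, against 6.49%), with a median of 0.2. The lower count was 4 without BRSST+sgLuc replicate 3 or with array quality weights, and 1 with array medians set equal or without BRSST+sgLuc replicate 1 or 4 or sgLuc replicate 1, 3 or 4. Id1 and Id2, which block basic helix-loop-helix factors of lymphoid development, rose by 1.17 ± 0.2 (adjusted p = 0.00175) and 0.7 ± 0.16 (adjusted p = 0.0117), Runx3 by 0.86 ± 0.18 (adjusted p = 0.00564) and Nfil3 by 0.57 ± 0.12 (adjusted p = 0.00778). Irf8, given above, and Klf4 (-0.76 ± 0.23, adjusted p = 0.043), a factor of monocytes, were called lower. Of the 9 fits that left out an array, Klf4 was called only without BRSST+sgLuc replicate 3 or sgLuc replicate 2. In the others its adjusted p was up to 0.129. Gfi1, a repressor needed for neutrophils, had a difference of 0.38 ± 0.1 (adjusted p = 0.0279), lost at up to 0.106 without BRSST+sgLuc replicate 4 or sgLuc replicate 1, 2 or 4.

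Of 31 genes recurrently mutated in myeloid neoplasia 1 was called higher and 3 lower, with a median of -0.15, a share close to the 11.9% of all genes called in either direction. U2af1, a splicing factor, read 10.53, 10.26, 10.15, 10.44 and 10.17 against 9.75, 9.64, 9.52 and 9.55 (0.69 ± 0.12, adjusted p = 0.00192). Idh1, the cytosolic isocitrate dehydrogenase, fell by 0.83 ± 0.19 (adjusted p = 0.00923). Stag2, a cohesin subunit, read 7.11, 6.41, 7.35, 6.95 and 8.07 against 8.59, 8.18, 7.58 and 8.31, with replicate 5 inside the control range (-0.99 ± 0.29, adjusted p = 0.0401). Without BRSST+sgLuc replicate 1, 2 or 4 or sgLuc replicate 1, 2 or 4 Stag2 was not called (up to 0.139). Nf1, an inhibitor of Ras, differed by -0.77 ± 0.23 (adjusted p = 0.0385), lost at up to 0.114 without BRSST+sgLuc replicate 1 or 4 or sgLuc replicate 1, 2 or 4. The lower count was 9 with array quality weights, 5 without BRSST+sgLuc replicate 3 or 5 or sgLuc replicate 3, and 1 with array medians set equal or without BRSST+sgLuc replicate 1 or 4 or sgLuc replicate 1, 2 or 4.

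Of 45 oxidative phosphorylation genes 17 were called higher (37.8%, against 5.43% of all genes), none lower and 28 not, 41 differences were above 0, and the median was 0.28. Between 11 and 21 were called without single arrays, the fewest without sgLuc replicate 1 or 3. Ndufb10, a subunit of complex I, read 11.33, 11.3, 11.1, 11.31 and 10.9 against 10.28, 10.35, 10.26 and 10.62 (0.81 ± 0.12, adjusted p = 0.000503). Sdhd of complex II rose by 0.76 ± 0.1 (adjusted p = 0.00026) and Atp5g1 of the ATP synthase by 0.68 ± 0.12 (adjusted p = 0.00201). Glycolysis genes were called lower in 3 of 20 cases (15%, against 6.49% of all genes) and higher in none. Their median was -0.14, and 6 of the 20 differences were above 0. Hk2 and Hk3, which phosphorylate glucose, fell by 1.28 ± 0.22 (adjusted p = 0.00172) and 0.72 ± 0.15 (adjusted p = 0.00561). Slc16a3, a lactate exporter, fell by 0.65 ± 0.15 (adjusted p = 0.0119). Of 19 cholesterol synthesis genes 7 were called lower and none higher, with a median of -0.24. Hsd17b7 read 7.57, 6.58, 7.72, 7.98 and 7.49 against 8.9, 8.66, 8.78 and 8.52 (-1.24 ± 0.23, adjusted p = 0.00286), and Sqle, squalene epoxidase, fell by 0.7 ± 0.13 (adjusted p = 0.00282).

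Of 23 S phase genes only Cdt1, a licensing factor, was called (4.35% higher, against 5.43% of all genes). It differed by 0.54 ± 0.16 (adjusted p = 0.0402). Of the 9 fits that left out an array the call held only without BRSST+sgLuc replicate 2, with an adjusted p of up to 0.128 in the others. Of 23 mitosis genes 5 were called lower (21.7%, against 6.49% of all genes) and none higher, with a median of -0.27, 2 with array medians set equal, 2 without BRSST+sgLuc replicate 1 or 4 or sgLuc replicate 1, and 1 without sgLuc replicate 2 or 4. Bub1b, a spindle checkpoint kinase, read 7.01, 5.9, 7.65, 7.09 and 7.26 against 8.1, 8.52, 8.12 and 8.36 (-1.29 ± 0.3, adjusted p = 0.0108). Of 21 ribosome biogenesis genes 2 were called higher (9.52%, against 5.43% of all genes) and none lower. The higher count was 5 without BRSST+sgLuc replicate 2, 1 without BRSST+sgLuc replicate 4 and 0 without BRSST+sgLuc replicate 1 or 3 or sgLuc replicate 1, 2 or 3. Hsph1, a chaperone of the Hsp110 family, was the only 1 of 9 heat shock genes called (11.1% lower, against 6.49% of all genes). It read 6.6, 6.97, 7.62, 6.63 and 6.74 against 9.15, 8.47, 8.03 and 8.55 (-1.64 ± 0.25, adjusted p = 0.000738). Of 14 stromal and endothelial genes 7 were low on all arrays and only Pecam1 was called (7.14% lower, against 6.49% of all genes). Pecam1, the endothelial and leukocyte adhesion molecule CD31, fell by 0.87 ± 0.21 (adjusted p = 0.014).

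**Figure D4:**
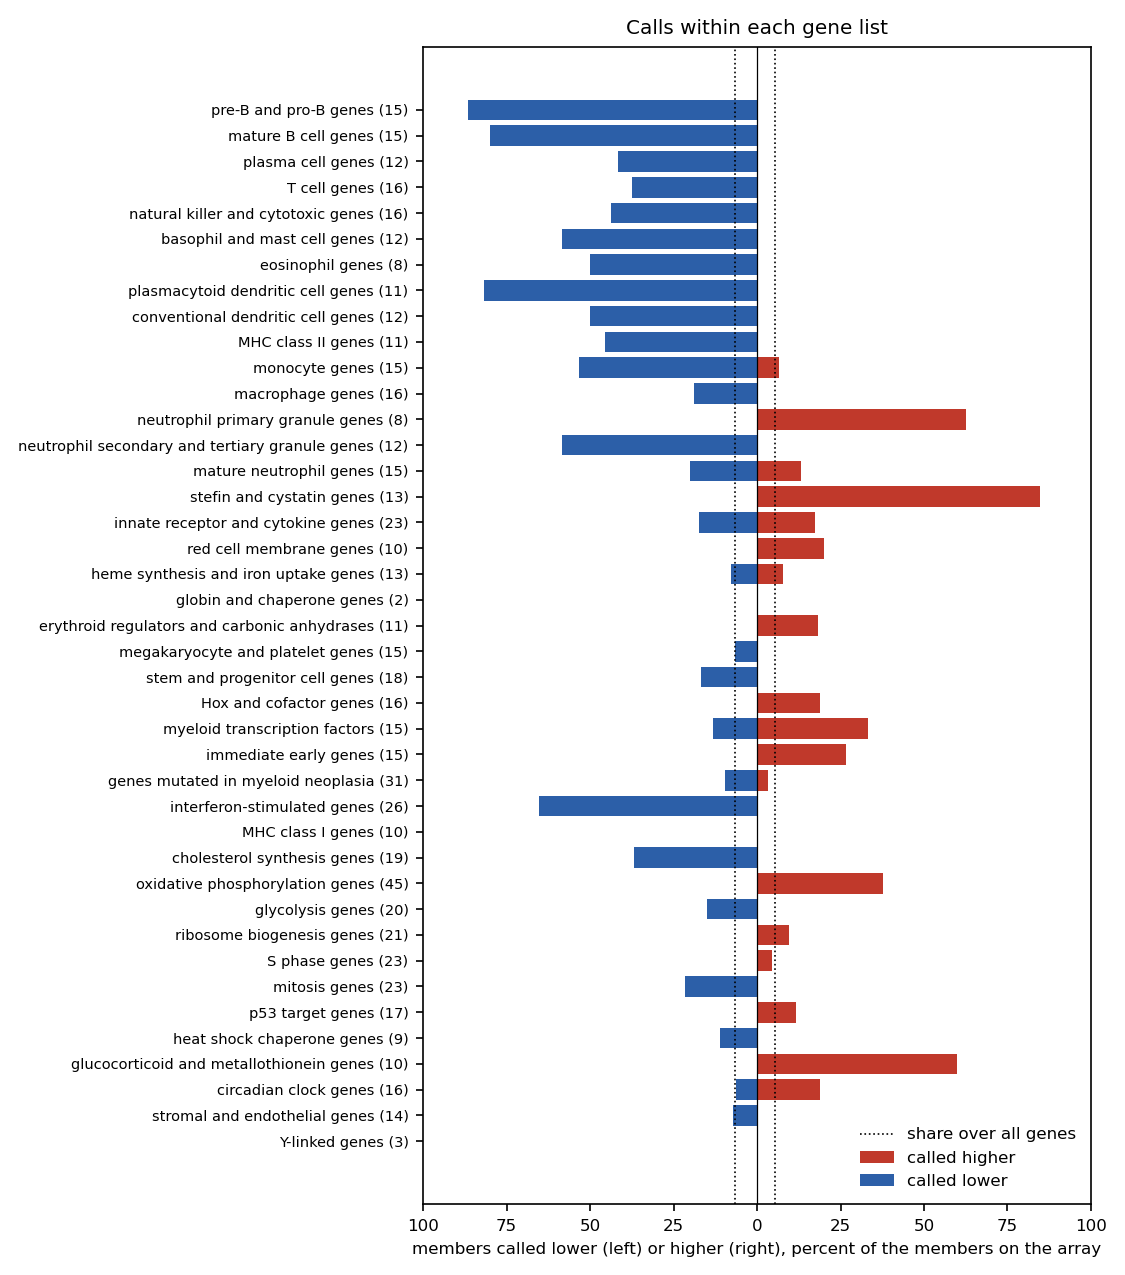
Percent of each list's genes on the array that were called lower (left) or higher (right) in BRSST+sgLuc against sgLuc marrow, 1 bar per list, with dotted lines at the share over all genes (6.49% lower, 5.43% higher). Pre-B, mature B and plasmacytoid dendritic cell genes have the longest bars on the lower side and stefin genes on the higher side.

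BRSST+sgLuc marrow was not uniform. Replicate 2 had the highest mean signal of the 5 arrays for pre-B, mature B, plasma, T, NK, dendritic, class II, monocyte and interferon genes, and the lowest for mitosis, S phase and ribosome biogenesis genes. For class II genes its mean was 10.86, inside the control range of 10.74 to 10.97, and for NK genes it was 7.9 against 7.79 to 8.38. Replicate 3 had the highest mean for red cell membrane genes, 7.98 against 6.55 to 6.93 in controls, and for S phase and mitosis genes. Replicate 5 had the lowest means of pre-B, NK, plasmacytoid dendritic, monocyte, interferon and stefin genes. Replicates 1 and 4 resembled each other most (correlation 0.992) and shared the high Saa3, Cxcl2 and Retnla values. They also shared high signals of the Y-linked genes Uty and Kdm5d, with a mean of 7.38 and 7.27 against 4.51 to 5.11 on replicates 2, 3 and 5 and 7.08 to 8.23 on all 4 sgLuc arrays. The labels give no sex, and the part of this split in other results was not tested beyond the values that follow. Over arrays of the high Y-linked class alone, BRSST+sgLuc replicates 1 and 4 against the 4 controls, the differences were -4.97 for Prss34 (adjusted p = 2.79e-07), -4.57 for Vpreb3 (0.00539), 3.62 for Ces2g (0.000123), 2.84 for Stfa1 (7.07e-05) and 2.48 for Car1 (0.00409), in a fit that included the 2 BRSST+sgEzh2 arrays of that class. In that fit 12 of 15 pre-B genes and 10 of 11 class II genes were called lower. The fit also lacks replicate 2, and leaving out that array alone already gave 10 class II calls. The class II count therefore cannot separate the Y-linked split from replicate 2.

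**Figure D5:**
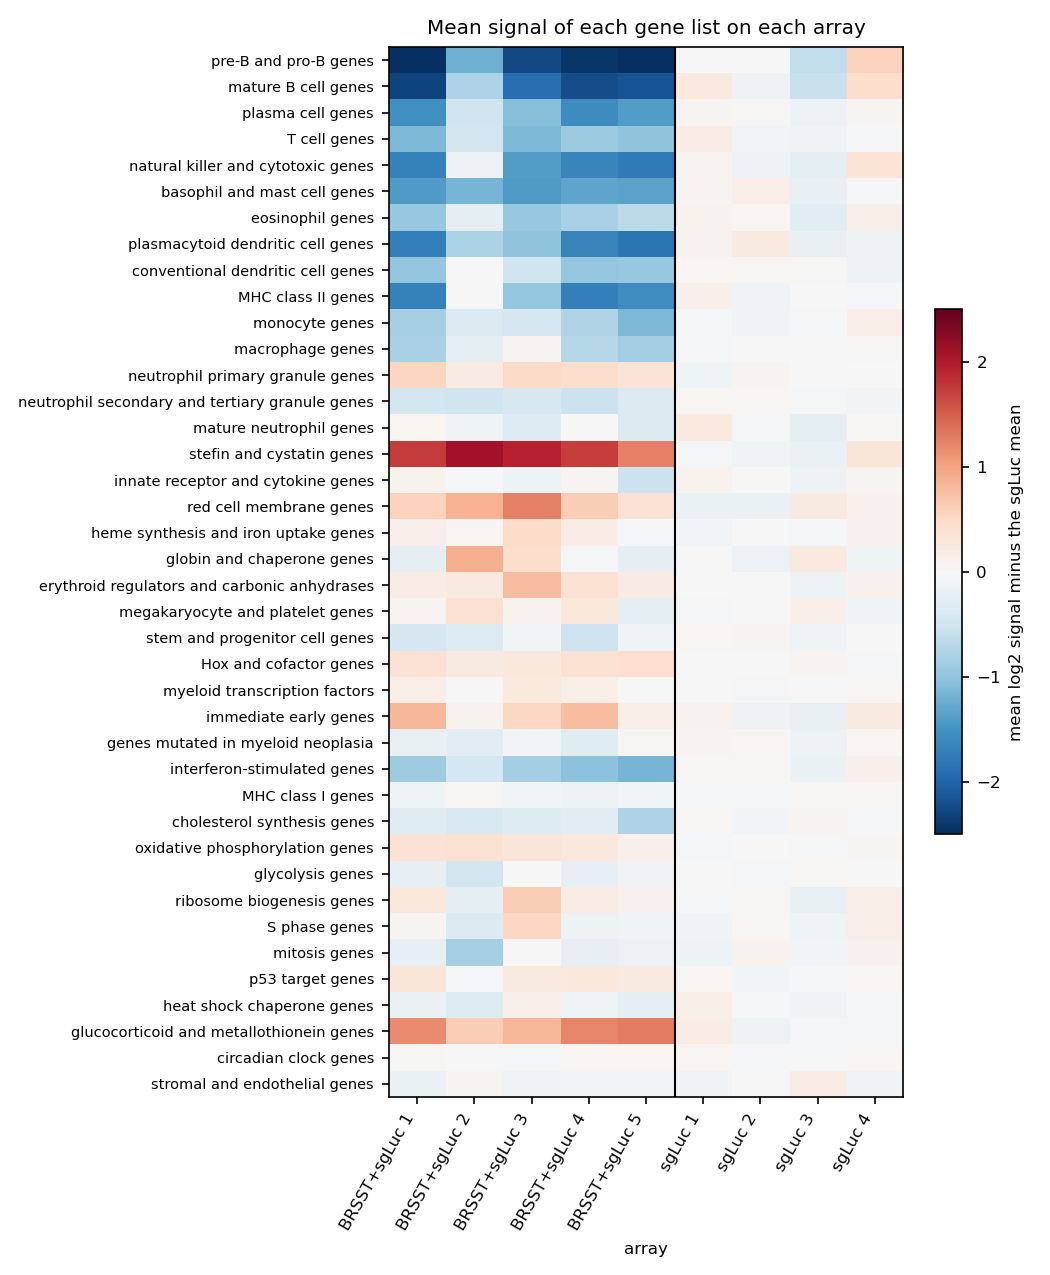
Mean signal of each of 40 gene lists on each array minus the mean of the 4 sgLuc arrays (log2, colour), with the 5 BRSST+sgLuc arrays and the 4 sgLuc arrays as columns. B cell, T cell, natural killer and plasmacytoid dendritic cell lists are lower on all 5 BRSST+sgLuc arrays and least so on replicate 2, and stefin genes are higher on all 5.

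Marrow labelled BRSST+sgEzh2, made with the same BRSST guides plus a guide to the histone methyltransferase Ezh2, gives a second set of values against the same controls, so the 2 comparisons share their sgLuc arrays and are only set side by side. In BRSST+sgEzh2 marrow 1007 genes (5.16%) were called against sgLuc, and 128 (0.656%) differed from BRSST+sgLuc. Prss34 differed from sgLuc by -5.08 (adjusted p = 1.42e-08) in BRSST+sgEzh2, Stfa1 by 3.04 (7.25e-07), Ces2g by 2.62 (0.000256), Vpreb3 by -2.97 (0.0127) and Car1 by 0.81 (0.524). For none of these 5 did the difference between the BRSST groups pass limma's test, Car1 included (-1.77, adjusted p = 0.158). The rise of Car1 was thus not called in BRSST+sgEzh2 marrow, and a difference between the BRSST groups was not detected. Of the other genes named above, Il1r2 was lower (-1.36, adjusted p = 0.0154), Hoxa5 lower (-0.6, 0.0135), Cd200r3 higher (1.02, 0.0134) and Siglecf higher (0.97, 0.0445) in BRSST+sgEzh2 than in BRSST+sgLuc marrow.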

How the data were processed

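Total RNA of whole bone marrow (2 ng per sample, amplified with 10 PCR cycles) was hybridised to Affymetrix arrays, per the labels' protocols. The deposited values are log2 signals that the authors made with oligo in R 3.5.01, per the submitters' processing notes. How background was corrected, how arrays were normalized and which version of oligo ran was not given in the sources used here. The number of arrays limits the precision.

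Probe sets with 1 symbol (19572 of 22203, 0 with several, 2631 with none) gave 19505 genes, and for the 55 genes with several probe sets that of highest mean signal was kept. A linear model over all 13 arrays and 3 groups, without covariates, was fitted with limma 3.58.1 in R 4.3.3 and tested on simulated data. No gene was removed for low signal, since such a filter lets a gene pass through the group where it is high. Genes past an adjusted p of 0.05 were called. Members and the 41 gene lists (684 symbols, 620 on the array, the others not analysed here) were chosen with earlier results of these data known. Genes were eligible to be named as the 5 markers of the comparison, the 15 largest rises and falls without overlap, and by list all members of lists with at most 12 genes, otherwise up to 5 called genes in each direction (2 of smallest p where none was called), or any called Hox, stefin, myeloid transcription factor or neoplasia gene, and the text names those that carry the results. Predicted genes were passed over. Promoters are RefSeq windows (GRCm38.p6), searched over 250 bases before the start with Biopython 1.88 in Python 3.11.15. Alternatives covered filters, scaling, weights, the replicate block, thresholds and left-out arrays.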

Additional observations from a re-analysis of the deposited data

Results flagged for a closer look

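In 13 of 142 sets of arrays tested, the highest or lowest array of a group stood further from the rest than Dixon's 95% critical value allows, and chance gives about 1 in 20. In BRSST+sgLuc marrow replicate 5 was low for Ces2g (10.05, next 11.29) and Hebp1 (8.66, next 9.69) and for the mean of cholesterol synthesis genes (7.88, next 8.26). Replicate 2 was high for the mean signal of pre-B genes (8.3, next 7.26), mature B cell genes (8.37, next 7.22), T cell genes (7.25, next 6.78) and natural killer genes (7.9, next 6.64), and low for mitosis genes (9.27, next 9.89) and p53 targets (7.72, next 8). Among sgLuc arrays, replicate 1 was high for T cell genes (7.91, next 7.67) and low for macrophage genes (7.32, next 7.37), replicate 4 low for conventional dendritic cell genes (7.82, next 7.98) and replicate 3 low for genes mutated in myeloid neoplasia (9.76, next 9.94).

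A difference between the BRSST groups passed limma's test for 6 of 249 named genes, as BRSST+sgEzh2 minus BRSST+sgLuc: Arntl 1.33 (adjusted p = 0.0111), Cd200r3 1.02 (0.0134), Hoxa5 -0.6 (0.0135), Il1r2 -1.36 (0.0154), Mpeg1 1.38 (0.0313) and Siglecf 0.97 (0.0445). Arntl, a core clock gene, had a difference of -0.7 between BRSST+sgLuc and sgLuc (adjusted p = 0.049), lost without BRSST+sgLuc replicate 1, 4 or 5 or sgLuc replicate 1, 2 or 4 (up to 0.154), and Mpeg1, a macrophage pore protein, one of -1.48 (0.00266). Of 2631 probe sets without a gene symbol, 269 were called (10.2%, 139 higher and 130 lower in BRSST+sgLuc marrow).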

How the results depend on the processing

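None of the 2325 calls changed direction in any alternative that tested them. Higher and lower genes numbered 2259 and 2338 with array quality weights, 440 and 580 at an adjusted p of 0.01, 124 and 420 with a change of at least 2-fold required, and 2001 were lower among arrays of the high Y-linked class alone. Leaving out 1 array gave 615 to 1294 higher and 781 to 1481 lower genes, and the cause was not tested. Other filters, scalings, variance settings, the 2-group fit and the Y-linked class as a block gave totals of 2048 to 2529. Equal array medians made 55.2% of calls higher, against 45.5%, and moved the median gene by at most 0.04. Eif2s3y, a Y-linked gene, went from -0.21 to 0.55 with that block (adjusted p = 0.0219) and to 0.53 in the high class alone (0.0491). With the replicate number as a block (replicate block), 2385 genes were called and 1901 of the 2325 kept, with 6 red cell membrane genes higher and 2 mitosis genes lower. Same-numbered samples did not deviate together over all genes (correlations -0.0138, 0.00112, -0.229 and -0.186). So few values, taken from small groups, cannot settle whether the numbers pair the samples. Over the alternatives for the differences of the 249 named genes, 4831 values kept side and direction, 384 lost and 107 gained the call, 59 changed sign without being called in either fit, and 2 changed sign with a call, both of Eif2s3y. In directions where a list had no call, 1 gene was called without BRSST+sgLuc replicate 2 (mitosis, higher), 3 (glycolysis, higher; S phase and oxidative phosphorylation, lower) or 5 (macrophage, higher; oxidative phosphorylation, lower). Signals below an array's lower quartile limit 51 falls, where all BRSST+sgLuc arrays lay there.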

Other observations

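Called genes of like direction sat side by side on 6 stretches of at least 5 neighbouring genes on the array. On chromosome 1, 8 neighbours of the Ifi200 family fell by 0.76 to 2.63 (Ifi214, Ifi213, Ifi209, Ifi208, Ifi207, Ifi204, Mndal and Ifi211). In 7 of them the groups were apart. This family is induced by interferon and includes sensors of foreign DNA. Ifi211 read 5.85, 7.74, 7.19, 5.34 and 4.79 on BRSST+sgLuc arrays against 8.94, 8.56, 8.82 and 8.91 (-2.63 ± 0.49, adjusted p = 0.00323 in limma's test, n = 5 and 4). Mndal read 8.29, 11.26, 9.69, 8.35 and 8.81 against 11.3, 11.4, 11.26 and 11.49, with replicate 2 next to the controls. Ifi213 read 5.68, 6.2, 6.6, 5.72 and 5.75 against 7.42, 7.38, 7.43 and 8.23, where replicate 2 did not stand out.

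On chromosome 7, Trim12a, Trim12c, Trim30b, Trim30a and Trim30d, ubiquitin ligases of the TRIM family, fell by 0.99 to 2.16. Trim12c read 7.95, 8.37, 8.37, 7.44 and 7.99 against 9.62, 9.47, 9.09 and 9.47 (-1.39 ± 0.2, adjusted p = 0.000593), and the call of Trim30b (-1.47 ± 0.36, adjusted p = 0.0142) reached 0.055 without sgLuc replicate 1. On chromosome 6, Klra9, Klra7, Klra10, Klra13-ps and Klra3, of the Ly49 receptor family of natural killer cells, fell by 0.78 to 2.34. Klra7 read 5.03, 6.63, 4.92, 4.77 and 4.61 against 7.66, 7.18, 6.9 and 8.38 (-2.34 ± 0.54, adjusted p = 0.0113), while Klra10 and Klra3 lay under the lower quartile on all 9 arrays, and Klra13-ps was lost at up to 0.0702 without sgLuc replicate 1, 2 or 4. On chromosome 2, a pair of stretches of 5 zinc finger and predicted genes rose by 0.68 to 0.94 and 0.51 to 0.83. Zfp931 there read 9.97, 9.94, 9.61, 9.88 and 9.67 against 9.12, 9.18, 8.84 and 9.23 (0.72 ± 0.11, adjusted p = 0.000922). The sixth stretch is that of the stefins. Members of each stretch resemble each other in sequence, so the division of signal among them is uncertain, and they are not independent of each other.

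Slamf6, a receptor of lymphocytes picked after its values were seen, is among the largest falls with overlapping groups. Slamf6 read 4.9, 8.56, 6.23, 5.38 and 5.37 against 9.64, 9.52, 8.26 and 9.88 (-3.23 ± 0.7, adjusted p = 0.0075), and the overlap came from BRSST+sgLuc replicate 2 and sgLuc replicate 3.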
